A study of Mus musculus with 12 samples.

Results

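A set of 39 genes was followed in mouse mammary tumour cells with and without a Nedd4 knockout: Nfe2l2, which encodes the transcription factor NRF2, Keap1, and 37 genes for enzymes and proteins of glutathione, thioredoxin, NADPH supply, glutathione transfer, ferritin and detoxification. The genes were chosen by symbol, with earlier results of these data known, and all 39 were found once in each deposited table of 56691 genes. Messenger RNA was sequenced from 4T1 and EMT6, which are established BALB/c mammary carcinoma lines grown in culture. Each line was given as control cells, labelled wild type, and as knockout (KO) cells, whose label sgNEDD4 stands for a CRISPR guide that targets Nedd4. Each of the 4 groups has 3 libraries, 12 in all. No group carries any other allele or treatment per the labels, and all libraries have the same batch label. The sources used here do not give the position of the guide, or say whether a group is 1 clone, a pool or separate cultures. P-values therefore measure only the spread between these libraries, which may be technical.

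NRF2 is a transcription factor that KEAP1, the substrate adaptor of a cullin ubiquitin ligase, marks for degradation in unstressed cells. When oxidants or electrophiles modify KEAP1, NRF2 accumulates, pairs with small MAF proteins and binds antioxidant response elements near genes for glutathione synthesis, thioredoxin reduction, NADPH supply, ferritin and drug metabolism. Glutathione transferases join glutathione to reactive compounds, and many tumour lines keep this programme active. NEDD4 is a HECT-type ubiquitin ligase.

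The letters of the antioxidant response element were first looked for in the members' own promoters, because they are what the transcription factor reads. RefSeq promoter windows (build GRCm38.p6, 250 bases before to 50 bases after a start) were matched by symbol for 32 of the 39 genes, with 43 windows in all. The core TGACNNNGC, on either strand, was present in windows of 11 of the 32 genes (34.4%), against 14.0% of the 27025 genes in the promoter table. By window the shares were 25.6% of 43 and 12.4% of 32851. The set was put together around NRF2, which binds this element, so its higher share is not independent evidence. The promoter table was also not limited to genes tested here. The AP-1 motif TGANTCA, which can overlap the core, was present in 6 of the 32 genes (18.8%) against 9.0% of all genes, and it overlapped the core in Me1 and Prdx1. The 8 core matches that lie wholly before the start are shown with the matched letters in capitals, each read 5′ to 3′ on the gene's strand. In Gstm5 and Nfe2l2 the core reads forward, and in the other 6 it reads as its reverse complement.
Gclm: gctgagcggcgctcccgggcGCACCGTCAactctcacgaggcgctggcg
Txnrd1: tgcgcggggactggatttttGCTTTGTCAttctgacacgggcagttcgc
Prdx1: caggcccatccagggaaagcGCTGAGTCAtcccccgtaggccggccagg
G6pdx: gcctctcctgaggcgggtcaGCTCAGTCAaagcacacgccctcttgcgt
Mgst1: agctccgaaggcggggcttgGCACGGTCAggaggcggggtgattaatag
Gstm5: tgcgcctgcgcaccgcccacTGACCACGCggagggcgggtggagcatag
Sod1: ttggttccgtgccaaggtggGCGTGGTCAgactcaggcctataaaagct
Nfe2l2: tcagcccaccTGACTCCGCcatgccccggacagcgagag
These stretches lie at chr3:122245403-122245451 on the plus strand for Gclm, chr10:82859094-82859142 plus for Txnrd1, chr4:116685446-116685494 plus for Prdx1 and chrX:74428909-74428957 minus for G6pdx. The others lie at chr6:138140451-138140499 plus for Mgst1, chr3:107895792-107895840 plus for Gstm5, chr16:90220686-90220734 plus for Sod1 and chr2:75704875-75704913 minus for Nfe2l2. The remaining matches are not printed: those in Srxn1 and Pgd lie after the start, and that in Me1 runs across it. Of the 11 genes with the core, 6 were called higher and 0 lower in 4T1 KO, and 3 were called higher and 6 lower in EMT6 KO. Of the 21 genes whose windows lack it, 13 were higher and 2 lower in 4T1, and 8 were higher and 7 lower in EMT6. Of all tested genes, 28.0% were called higher and 29.0% lower in 4T1, and 27.9% and 28.2% in EMT6, and the difference between these counts was not tested. A match describes the letters of a window and not a site in use, and a window without a match says nothing about binding elsewhere.

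The targeted gene was lower in the KO libraries of both lines. Nedd4 stood at 94.4, 97.6 and 93.5 FPKM (counts scaled to exonic length and library total) in 4T1 control and at 24.7, 24.9 and 25.3 in 4T1 KO, and it went from 122, 121 and 116 to 12.1, 11.5 and 12.1 FPKM in EMT6. The remaining RNA was thus 24.9% of control in 4T1 and 9.9% in EMT6, as fitted. The libraries held 13705612 to 19761604 counts each. At that depth 3 counts equal 0.152 to 0.219 CPM, the unit of counts after scaling by library size. More genes had a count in 4T1 KO (20937 to 21264) than in 4T1 control (18836 to 19017), and the nuclear RNA Malat1 rose there from 69.3 to 155 CPM in control to 479 to 560 CPM in KO, while in EMT6 it went from 189 to 450 CPM to 158 to 200 CPM. The part of these shifts in the results was not tested. The epithelial marker list summed to 1951 to 2029 FPKM in 4T1 control and 1406 to 1486 in KO, with 7 of 8 markers at or above 1 FPKM and Krt5 without a count. EMT6 had 3 of 8 in control and 2 in KO, sums of 348 to 415 and 378 to 392 FPKM, Cldn4 without a count and Cdh1 at a mean of 0.0067 FPKM. The keratins Krt8, at a mean of 293 FPKM in control and 352 in KO, and Krt18, at 76.2 and 32.5, were detected in EMT6. Leukocyte markers (2 of 9 at or above 1 FPKM in 4T1 and in EMT6 control, 3 in EMT6 KO, all T and B cell markers at 0) summed to 24.2 to 26.8 FPKM in control and 26.3 to 29.3 in KO of 4T1, and to 28.6 to 34.4 and 16.3 to 18.1 in EMT6. Nearly all of these sums came from Cd68 and Cd14. In EMT6 their means went from 19.4 to 7.39 and from 10.9 to 8.81 FPKM, while Csf1r rose from 0.51 to 1.04. Ptprc, Adgre1 and Itgam had no count in EMT6. In 4T1 Cd68 was called higher and Cd14 lower. Fibroblast markers summed to 4.88 to 5.82 and 5.23 to 5.45 FPKM in 4T1, with 1 of 6 at or above 1 FPKM, and to 158 to 179 and 211 to 243 in EMT6, with 2 of 6 in control and 4 in KO and Lum at 0. Endothelial markers, 1 of 5 at or above 1 FPKM in each group, summed to 19.3 to 20.9 and 20.3 to 23.8 FPKM in 4T1 and to 1.05 to 1.31 and 1.10 to 1.32 in EMT6, nearly all from Eng. Mesenchymal markers summed to 896 to 982 and 956 to 964 FPKM in 4T1 and to 798 to 852 and 1188 to 1265 in EMT6. In 4T1 Vim and Zeb2 were called higher and Fn1 lower. The part of the marker genes in the results was not tested. In bulk RNA, fewer cells of a type and less RNA per cell cannot be told apart.

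In the 4T1 knockout most of these genes were called higher. In the EMT6 knockout more were called lower than higher, but not under every alternative. Calls rest on edgeR's quasi-likelihood test and need a Benjamini-Hochberg adjusted p below 0.05, adjusted over all genes tested in the comparison. Every adjusted p comes from that test unless another is named. Changes are on the log2 scale, KO minus control, ± the standard error (SE) of the fit. In 4T1, 38 of the 39 genes had enough counts to be tested, 22 were called higher (57.9%), 4 lower (10.5%) and 12 not called, where 28.0% of all 13313 tested genes were called higher and 29.0% lower. The median log2 change of the 38 was 0.23, and that of all tested genes 0.00. With libraries scaled by total counts alone, the share of higher genes among all 4T1 calls went from 49.1% to 61.2%. In EMT6 all 39 were tested, and 12 were called higher (30.8%) and 18 lower (46.2%), with 27.9% and 28.2% of 12890 genes called. The higher share in EMT6 is close to that of all genes. The median of the 39 was -0.13 in EMT6 and that of all tested genes 0.00. Leaving the low-count filter out reduced the count of lower genes in EMT6 from 18 to 11, and more genes were then called higher than lower. The same held when EMT6 control replicate 2 was left out.

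**Figure D1:**
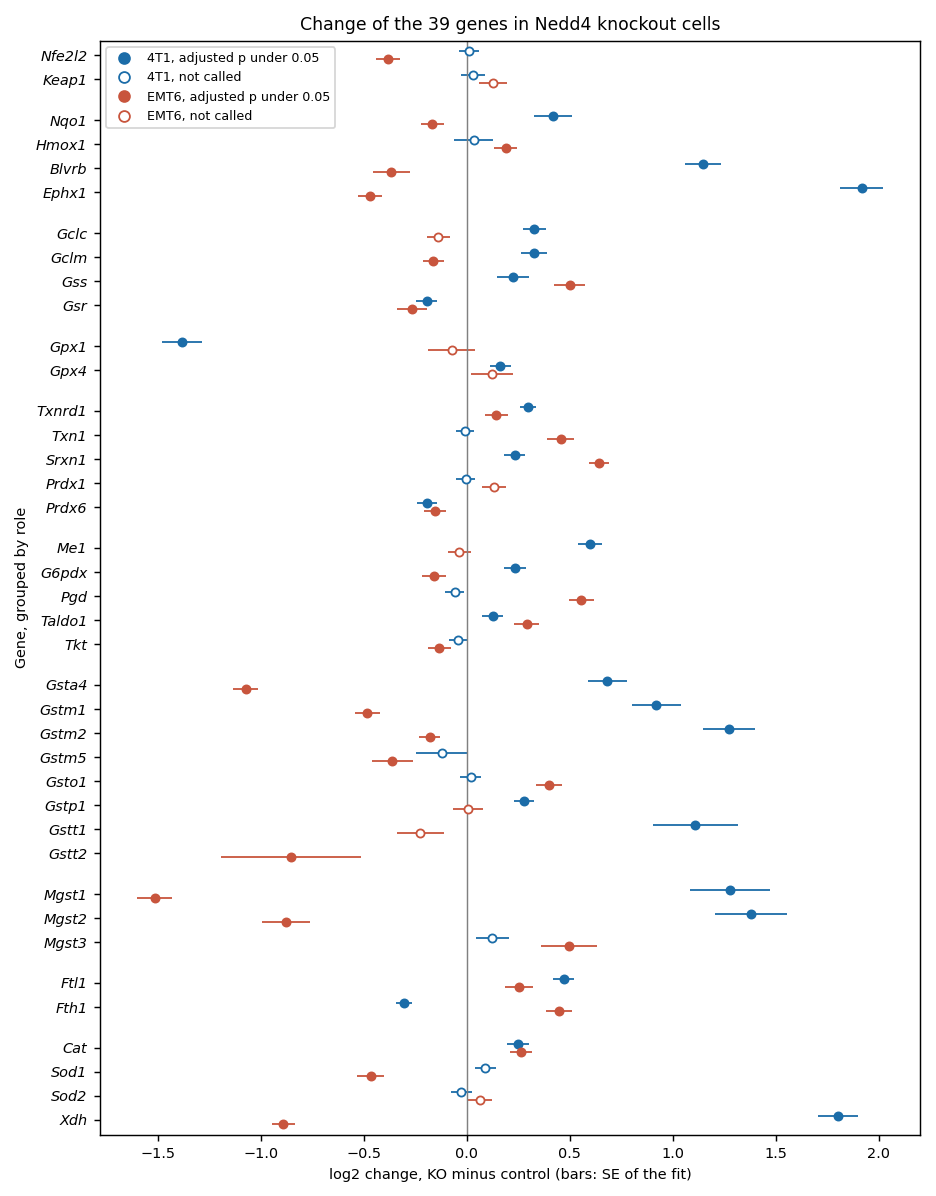
Log2 change of each of the 39 genes in KO over control (horizontal axis), by gene and role (vertical axis), in 4T1 (blue) and EMT6 (red); bars are the SE of the fit over 3 libraries a group, and filled points have an adjusted p under 0.05. Ephx1 (1.92) and Xdh (1.80) are farthest to the right in 4T1, and Mgst1 (-1.52) farthest to the left in EMT6, while Gpx1 (-1.38) is the lowest in 4T1.

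The 2 lines, which share no library, moved 11 of the 38 genes tested in both in opposite directions, up in 4T1 and down in EMT6 (28.9%, against 9.42% of the 12006 genes tested in both). These were Nqo1, Blvrb, Ephx1, Gclm, G6pdx, Gsta4, Gstm1, Gstm2, Mgst1, Mgst2 and Xdh. Since the set was chosen with earlier results of these data known, its shares beside those of all genes are descriptive and not an independent test. Only Fth1 was lower in 4T1 and higher in EMT6, where 10.2% of all genes were. Gss, Txnrd1, Srxn1, Taldo1, Ftl1 and Cat were higher in both lines, against 7.05% of all genes, and Gsr and Prdx6 were lower in both, against 7.85%. Among those called in 1 line, 5 were higher in 4T1 (Gclc, Gpx4, Me1, Gstp1 and Gstt1), 1 was lower there (Gpx1), 5 were higher in EMT6 (Hmox1, Txn1, Pgd, Gsto1 and Mgst3) and 4 were lower in EMT6 (Nfe2l2, Tkt, Gstm5 and Sod1). For calls in 1 line only, the share over all genes is not given here. Keap1, Prdx1 and Sod2 were called in neither line. The difference between the lines was itself tested, as a line-by-knockout interaction fitted over the 12 libraries together: 26 of 38 genes were called (68.4%), 19 with a lower change in EMT6 and 7 with a higher one, where 59.9% of all genes were called. Of all 12006 genes, 3629 had a lower change in EMT6 and 3568 a higher one. The interaction values come from that joint fit and so are not exactly the difference of the 2 separate log2 changes. The count of 11 was 7 without the low-count filter, where 4.45% of all genes moved that way, and 8 when each chromosome's median change was removed, where 9.17% did. Blvrb, Ephx1, Gsta4 and Gstm1 were called in these opposite directions under every alternative that was run, and Mgst1, Mgst2 and Xdh under all but a limit of 5 FPKM, which removed them from the test.

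**Figure D2:**
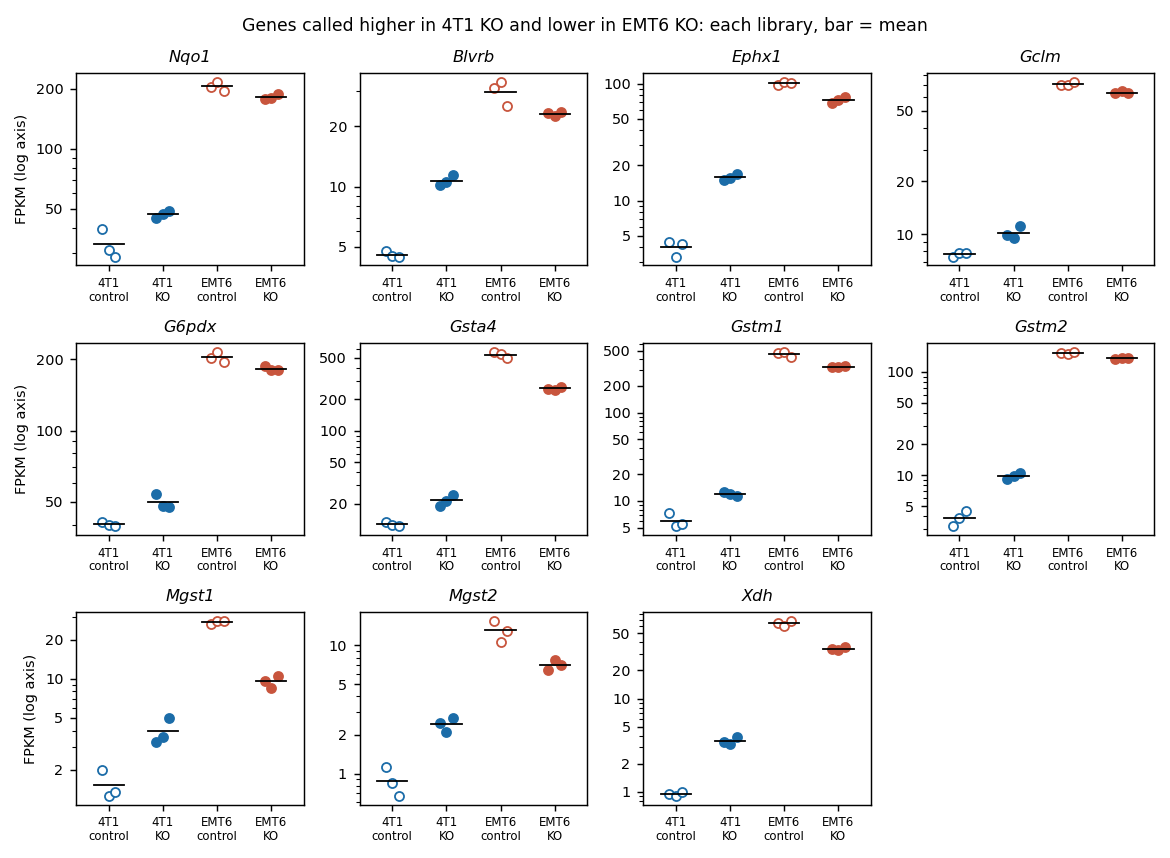
Level in FPKM on a log axis (vertical) of the 11 genes called higher in 4T1 KO and lower in EMT6 KO, for each library of the 4 groups (horizontal); open points are control, filled points KO, and bars are means of 3 libraries. In each gene the KO libraries lie above the control libraries in 4T1 and below them in EMT6, and every EMT6 library lies above every 4T1 library.

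Of the regulators, Nfe2l2 was called lower in EMT6, and neither gene was called in 4T1. Nfe2l2 stood at 39.3, 37.9 and 35.8 FPKM in 4T1 control and 40.5, 40.2 and 39.6 in KO. In EMT6 it stood at 49.9, 48.7 and 51.1 FPKM in control and 39.3, 39.9 and 35.3 in KO. The groups did not overlap in either line, but in 4T1 they were separated by less than the spread among the controls and the change was not called (0.01 ± 0.05, adjusted p = 0.874), while in EMT6 the RNA fell to 76.6% of control (-0.38 ± 0.06, adjusted p = 3.40e-05). The changes differed between the lines (interaction -0.41 ± 0.08, adjusted p = 5.74e-05). Nfe2l2 lies on chromosome 2, whose median change in 4T1 was 0.13, and with each chromosome's median removed its 4T1 change was -0.12 (adjusted p = 0.0394). Keap1, whose product holds NRF2 in check, was called in neither line, with log2 changes of 0.03 and 0.13. Without EMT6 control replicate 2 the EMT6 value became 0.19 (adjusted p = 0.0287), and with chromosome medians removed 0.22 (adjusted p = 0.0143).

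Among the quinone, haem and epoxide enzymes, 3 of 4 rose in 4T1 and the same 3 fell in EMT6. Of all tested genes, 28.0% were called higher in 4T1 and 28.2% lower in EMT6. Ephx1, the microsomal epoxide hydrolase, went from 4.41, 3.32 and 4.23 FPKM in 4T1 control to 15.0, 15.8 and 17.0 in KO. The EMT6 libraries went from 97.2, 103 and 100.2 FPKM to 68.2, 71.9 and 77.0. The 4T1 KO libraries all lay far above their controls and still far below any EMT6 library. Its change was 1.92 ± 0.10 in 4T1 (3.78-fold, adjusted p = 2.21e-13), -0.47 ± 0.06 in EMT6 (adjusted p = 4.44e-06) and -2.41 ± 0.11 for the difference (adjusted p = 2.18e-14). Blvrb, which reduces flavins and biliverdin, went from 4.74, 4.51 and 4.46 FPKM to 10.2, 10.5 and 11.4 in 4T1. In EMT6 it went from 31.1, 33.4 and 25.2 to 23.3, 22.4 and 23.7 FPKM, where the lowest control lay just above the highest KO library. Its changes were 1.15 ± 0.09 (adjusted p = 1.15e-10) and -0.37 ± 0.09 (adjusted p = 0.00385), with an interaction of -1.53 ± 0.13 (adjusted p = 1.23e-09). Nqo1, the quinone reductase often read as an NRF2 target, stood at 39.7, 31.1 and 28.7 FPKM in 4T1 control and 45.1, 47.0 and 48.9 in KO. In EMT6 its libraries read 205, 216 and 195 FPKM in control and 178, 180 and 189 in KO, again without overlap but by a small margin. Nqo1 changed by 0.42 ± 0.09 in 4T1 (adjusted p = 0.00178) and by -0.17 ± 0.06 in EMT6 (adjusted p = 0.0191), and the difference was -0.61 ± 0.11 (adjusted p = 0.000213). The EMT6 call of Nqo1 was lost without control replicate 2 (-0.12, adjusted p = 0.0764), KO replicate 1 (-0.15, adjusted p = 0.0925) or KO replicate 2 (-0.16, adjusted p = 0.0730), without the low-count filter (-0.13, adjusted p = 0.0969), and with chromosome medians removed, where it was 0.01 (adjusted p = 0.869). Hmox1, the inducible haem oxygenase and a classical NRF2 target, did not follow the other 3: it was not called in 4T1 (0.03 ± 0.10) and was called higher in EMT6 (0.19 ± 0.05, adjusted p = 0.00760), from 125 to 130.2 FPKM in control to 140.2 to 152 in KO. That call was lost without EMT6 KO replicate 2 (0.15, adjusted p = 0.0782).

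Glutathione is made by glutamate-cysteine ligase, whose catalytic and modifier subunits are Gclc and Gclm, and by glutathione synthetase, Gss. All 3 were called higher in 4T1, and in EMT6 Gss was called higher and Gclm lower. For comparison, 28.0% of all tested genes were called higher and 29.0% lower in 4T1, and 27.9% and 28.2% in EMT6. Gclc went from 17.1, 16.1 and 16.2 FPKM to 22.9, 20.8 and 21.8 in 4T1, and from 37.7, 38.7 and 35.5 to 34.5, 32.8 and 34.2 in EMT6. Gclm went from 7.45, 7.85 and 7.82 FPKM to 9.90, 9.56 and 11.1 in 4T1, and from 70.7, 70.3 and 73.0 to 63.2, 64.7 and 63.0 in EMT6. No KO library overlapped the controls for either subunit in either line. In 4T1 the changes were 0.33 ± 0.06 for Gclc (adjusted p = 1.90e-05) and 0.33 ± 0.06 for Gclm (adjusted p = 8.77e-05). In EMT6 they were -0.14 ± 0.06 for Gclc, which just missed the threshold (adjusted p = 0.0506), and -0.16 ± 0.05 for Gclm (adjusted p = 0.0127), and the interactions were -0.49 ± 0.08 (adjusted p = 1.37e-05) and -0.51 ± 0.08 (adjusted p = 3.79e-06). Gclc passed in EMT6 without control replicate 3 (-0.18, adjusted p = 0.00829) and with other scalings or a 5 FPKM limit (adjusted p from 0.0261 to 0.0476). The EMT6 call of Gclm was lost without KO replicate 1 (-0.16, adjusted p = 0.0655), KO replicate 3 (-0.15, adjusted p = 0.0575) or the low-count filter (-0.13, adjusted p = 0.113), and with chromosome medians removed (-0.07, adjusted p = 0.254). Gss went the same way in both lines, from 4.17, 4.23 and 4.84 FPKM to 5.21, 5.49 and 5.61 in 4T1 and from 4.75, 4.96 and 4.68 to 6.70, 7.08 and 6.53 in EMT6. Its KO libraries lay above all controls in both lines, with changes of 0.23 ± 0.08 (adjusted p = 0.0153) and 0.50 ± 0.08 (adjusted p = 3.12e-05). The 4T1 call of Gss was lost without control replicate 1 (0.18, adjusted p = 0.0832), without the low-count filter (0.20, adjusted p = 0.0544) and with chromosome medians removed (0.10, adjusted p = 0.295). The larger change of Gss in EMT6 (interaction 0.25 ± 0.10, adjusted p = 0.0385) was no longer called when any of 6 single libraries was left out: 4T1 control replicate 3 (0.20), 4T1 KO replicate 1 (0.23), 4T1 KO replicate 2 (0.26), EMT6 control replicate 1 (0.25), EMT6 control replicate 3 (0.24) or EMT6 KO replicate 2 (0.23), with adjusted p from 0.0559 to 0.12. It was also lost with DESeq2 (adjusted p = 0.0524), with total-count scaling (adjusted p = 0.117) and with a 5 FPKM limit (adjusted p = 0.114). Gsr, which reduces oxidised glutathione with NADPH, fell in both lines, from 32.8, 32.0 and 32.8 FPKM to 28.5, 30.1 and 31.5 in 4T1 and from 44.4, 44.3 and 40.5 to 33.7, 33.4 and 40.3 in EMT6. EMT6 KO replicate 3 reached almost to the lowest control. The changes were -0.19 ± 0.05 (adjusted p = 0.00216) and -0.27 ± 0.07 (adjusted p = 0.00556), and the first was lost with total-count scaling (-0.11, adjusted p = 0.0663) and the second with chromosome medians removed (-0.09, adjusted p = 0.343).

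The glutathione peroxidases held the largest fall in 4T1. Gpx1, the cytosolic enzyme that reduces hydrogen peroxide, went from 19.7, 17.8 and 21.9 FPKM in control to 7.46, 7.83 and 8.75 in KO. In EMT6 its libraries overlapped, with 17.9, 22.4 and 23.1 FPKM in control and 19.7, 17.7 and 23.1 in KO. The 4T1 libraries thus separated cleanly, to 38.4% of control (-1.38 ± 0.10, adjusted p = 2.19e-11), while EMT6 gave -0.07 ± 0.11 (adjusted p = 0.606), and the lines differed by 1.29 ± 0.15 (adjusted p = 2.86e-07). The control levels of Gpx1 in the 2 lines were not called different (adjusted p = 0.271), except without EMT6 control replicate 1 (0.23, adjusted p = 0.0425). Gpx4, which reduces lipid peroxides and protects against ferroptosis, was called higher in 4T1 by a small amount (0.16 ± 0.05, adjusted p = 0.0102) and not in EMT6 (0.12 ± 0.10, adjusted p = 0.335). Its 4T1 call was lost without control replicate 2 (0.12, adjusted p = 0.0608) or KO replicate 3 (0.12, adjusted p = 0.0676), and in EMT6 it passed without control replicate 2 (0.23, adjusted p = 0.0417). Reads that could come from Gpx4 were also counted to its pseudogene Gpx4-ps2, with 4128 counts against 4528 for Gpx4 summed over the 4T1 controls. With both added together, the 4T1 change was 0.14 (adjusted p = 0.0194).

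Of the 5 thioredoxin and peroxiredoxin genes, 2 rose and 1 fell in 4T1, and 3 rose and 1 fell in EMT6. All tested genes gave 28.0% higher and 29.0% lower in 4T1, and 27.9% and 28.2% in EMT6. Srxn1, the sulfiredoxin that repairs over-oxidised peroxiredoxins, went from 38.0, 33.5 and 36.7 FPKM to 44.4, 42.3 and 47.4 in 4T1. EMT6 libraries went from 84.3, 83.0 and 84.7 FPKM to 133, 129.8 and 129.9. The KO libraries lay above all controls in both lines, by 0.23 ± 0.05 (adjusted p = 0.000581) and 0.64 ± 0.05 (adjusted p = 2.25e-08), and the difference was 0.39 ± 0.07 (adjusted p = 5.41e-05). The 4T1 call of Srxn1 was lost with chromosome medians removed (0.10, adjusted p = 0.0976). Txn1, thioredoxin itself, read 337, 325 and 347 FPKM in 4T1 control and 344, 351 and 364 in KO, which overlap. In EMT6 Txn1 went from 247, 267 and 229 FPKM to 319, 344 and 355, with every KO library above every control. It was not called in 4T1 (-0.01 ± 0.04, adjusted p = 0.860), rose by 0.46 ± 0.06 in EMT6 (adjusted p = 1.83e-05), and differed between the lines by 0.44 ± 0.08 (adjusted p = 2.78e-05). Txnrd1, the selenoenzyme that reduces thioredoxin with NADPH, went from 58.9, 56.4 and 58.5 FPKM to 76.5, 74.1 and 75.0 in 4T1. In EMT6 it went from 125, 129.5 and 132 FPKM to 145, 139.9 and 140.2, again without overlap. Its changes were 0.30 ± 0.04 (adjusted p = 1.21e-06) and 0.14 ± 0.05 (adjusted p = 0.0349), with a difference of -0.17 ± 0.06 (adjusted p = 0.0214). The EMT6 call of Txnrd1 was lost without control replicate 1 (0.12, adjusted p = 0.0967) or KO replicate 1 (0.12, adjusted p = 0.173), 2 (0.15, adjusted p = 0.0919) or 3 (0.16, adjusted p = 0.0598), and with chromosome medians removed (0.09, adjusted p = 0.201). Its interaction was lost without 4T1 KO replicate 1 (-0.15, adjusted p = 0.0589), EMT6 KO replicate 2 (-0.16, adjusted p = 0.0637) or EMT6 KO replicate 3 (-0.16, adjusted p = 0.0558), and without the low-count filter (-0.13, adjusted p = 0.183). Prdx6, a peroxiredoxin that also handles phospholipids, was called lower in both lines. It read 66.7, 64.3 and 73.5 FPKM in 4T1 control and 60.9, 61.9 and 65.8 in KO, where the highest KO library overlapped the controls, and 71.0, 75.8 and 75.0 against 66.2, 65.1 and 67.5 in EMT6, where none did. The changes were -0.19 ± 0.05 (adjusted p = 0.00109), lost with chromosome medians removed (-0.04, adjusted p = 0.496), and -0.16 ± 0.05 (adjusted p = 0.0199). The EMT6 call of Prdx6 was lost without control replicate 2 (-0.13, adjusted p = 0.0558), KO replicate 1 (-0.16, adjusted p = 0.0752), KO replicate 2 (-0.15, adjusted p = 0.0810) or the low-count filter (-0.12, adjusted p = 0.138). Prdx1, an abundant peroxiredoxin at 169 to 427 FPKM over the 12 libraries, was called in neither line, although in EMT6 it passed in 5 alternatives, among them without control replicate 2 (0.17, adjusted p = 0.0187).

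Of the 5 NADPH supply genes, 3 rose and 0 fell in 4T1, and 2 rose and 2 fell in EMT6. The shares of all tested genes were 28.0% higher and 29.0% lower in 4T1, and 27.9% and 28.2% in EMT6. G6pdx, the enzyme of the first step of the pentose phosphate pathway, went from 41.0, 40 and 39.4 FPKM to 53.8, 47.9 and 47.7 in 4T1 and from 202, 216 and 195 to 187, 181 and 179.8 in EMT6. The groups did not overlap in either line, and the changes were 0.23 ± 0.05 (adjusted p = 0.000542), -0.16 ± 0.06 (adjusted p = 0.0282) and, for the difference, -0.41 ± 0.08 (adjusted p = 9.06e-05). G6pdx lies on the X chromosome, whose median change was 0.30 in 4T1 and 0.27 in EMT6, and with these removed its 4T1 change was -0.07 (adjusted p = 0.294). The EMT6 call of G6pdx was lost without control replicate 2 (-0.11, adjusted p = 0.104) or KO replicate 1 (-0.18, adjusted p = 0.0602), 2 (-0.16, adjusted p = 0.0937) or 3 (-0.14, adjusted p = 0.109), and without the low-count filter (-0.12, adjusted p = 0.127). Pgd, of the pathway's next oxidation, overlapped in 4T1 (28.6, 29.1 and 30.3 FPKM in control, 29.5, 29.6 and 29.9 in KO) and rose in EMT6, from 76.0, 81.7 and 70.0 to 111, 109.5 and 114 FPKM. Every EMT6 KO library was above the controls by a wide margin (0.56 ± 0.06, adjusted p = 1.31e-06), 4T1 gave -0.06 ± 0.04 (adjusted p = 0.251), and the difference was 0.60 ± 0.07 (adjusted p = 3.28e-07). With chromosome medians removed Pgd was called lower in 4T1 (-0.14, adjusted p = 0.0112). Me1, the cytosolic malic enzyme, went from 10.9, 10.5 and 12.04 FPKM to 17.6, 17.9 and 17.8 in 4T1, and in EMT6 its groups overlapped, at 41.7, 44.9 and 44.1 in control and 41.9, 42.1 and 43.4 in KO. Its change was 0.60 ± 0.06 in 4T1 (adjusted p = 6.41e-09), -0.04 ± 0.06 in EMT6 (adjusted p = 0.592) and -0.66 ± 0.08 for the difference (adjusted p = 1.12e-07). Taldo1, a transaldolase of the non-oxidative branch, went from 58.0, 54.2 and 60.8 to 63.7, 64.9 and 70.5 FPKM in 4T1 and from 81.2, 88.8 and 90.5 to 108, 109 and 102 in EMT6. Both groups of KO libraries lay above their controls, by 0.12 ± 0.05 (adjusted p = 0.0353) and 0.29 ± 0.06 (adjusted p = 0.000521). The 4T1 call of Taldo1 was lost in 7 alternatives: without control replicate 1 (0.13, adjusted p = 0.0758), control replicate 2 (0.09, adjusted p = 0.127), KO replicate 2 (0.14, adjusted p = 0.0580) or KO replicate 3 (0.08, adjusted p = 0.197), with DESeq2 (adjusted p = 0.0503), without the low-count filter (adjusted p = 0.169) and with chromosome medians removed (adjusted p = 0.587). Tkt, the transketolase of the same branch, was not called in 4T1 and was called lower in EMT6 (-0.13 ± 0.05, adjusted p = 0.0473). It lies on chromosome 14, whose median in EMT6 was -0.27, and with that removed it was called higher (0.14, adjusted p = 0.0428). The Tkt call was also lost without EMT6 control replicate 2 (-0.10, adjusted p = 0.115) or KO replicate 1 (-0.13, adjusted p = 0.156), 2 (-0.12, adjusted p = 0.158) or 3 (-0.15, adjusted p = 0.0725), and without the low-count filter (-0.10, adjusted p = 0.250).

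Of the 11 genes with opposite calls, 3 were cytosolic glutathione transferases. Of the 8 cytosolic genes, 7 were tested in 4T1, where 5 rose and 0 fell, and all 8 in EMT6, where 1 rose and 5 fell. Over all tested genes, 28.0% were called higher and 29.0% lower in 4T1, and 27.9% and 28.2% in EMT6. Gsta4, which favours the lipid peroxidation product hydroxynonenal, went from 13.5, 12.6 and 12.2 FPKM to 19.2, 21.4 and 24.4 in 4T1. In EMT6, where it was one of the most abundant of the 39 genes, it went from 573, 541 and 493 FPKM to 254, 247 and 261. All 3 EMT6 KO libraries thus stood near 47.5% of control (-1.07 ± 0.06, adjusted p = 3.96e-10), while 4T1 gave 0.68 ± 0.09 (adjusted p = 1.19e-06), and the interaction was -1.78 ± 0.10 (adjusted p = 3.29e-12). Gstm1, a mu-class transferase, went from 7.23, 5.17 and 5.45 FPKM to 12.5, 11.8 and 11.4 in 4T1. In EMT6 it went from 478, 491 and 425 to 331, 331 and 333 FPKM, with the KO libraries close together and below every control. Its changes were 0.92 ± 0.12 (adjusted p = 5.10e-07), -0.48 ± 0.06 (adjusted p = 4.86e-06) and -1.42 ± 0.12 for the difference (adjusted p = 1.50e-09). Gstm2, its neighbour on chromosome 3, went from 3.21, 3.82 and 4.56 FPKM to 9.15, 9.87 and 10.4 in 4T1 and from 154, 149.6 and 157 to 133, 137 and 136 in EMT6. No KO library overlapped the controls in either line, and the changes were 1.27 ± 0.13 (adjusted p = 7.46e-09) and -0.18 ± 0.05 (adjusted p = 0.00630), with a difference of -1.48 ± 0.11 (adjusted p = 1.03e-10). The EMT6 call of Gstm2 was lost without the low-count filter (-0.15, adjusted p = 0.0661) and with chromosome medians removed (-0.09, adjusted p = 0.149).

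Gstt1, a theta-class transferase, went from 1.82, 1.18 and 1.43 FPKM to 2.78, 3.67 and 3.72 in 4T1, and its EMT6 groups overlapped, at 10.3, 10.4 and 10.6 in control and 8.46, 7.95 and 10.5 in KO. It rose in 4T1 (1.11 ± 0.21, adjusted p = 6.90e-05), and EMT6 gave -0.23 ± 0.11 (adjusted p = 0.102), which passed as lower without KO replicate 3 (-0.34, adjusted p = 0.0222) and with chromosome medians removed (-0.28, adjusted p = 0.0462). The interaction was -1.35 ± 0.23 (adjusted p = 1.87e-05). Gstp1, the pi-class transferase that made up 49.0% of the summed FPKM of the 11 transferases in 4T1 control and 5.1% in EMT6 control, went from 103, 95.8 and 105 FPKM to 133, 123 and 132 in 4T1. In EMT6 its libraries overlapped, at 66.5, 74.8 and 65.9 FPKM in control and 73.2, 71.3 and 62.9 in KO. Gstp1 rose in 4T1 (0.28 ± 0.05, adjusted p = 2.42e-05), gave 0.00 ± 0.07 in EMT6 (adjusted p = 0.962) and differed by -0.29 ± 0.09 (adjusted p = 0.00658). Gsto1, an omega-class enzyme that reduces rather than conjugates, took the other course. It read 46.2, 44.0 and 44.0 FPKM in 4T1 control and 46.4, 50.02 and 47.3 in KO, and went from 64.5, 59.9 and 64.5 to 87.3, 86.1 and 75.2 in EMT6. The groups did not overlap, but in 4T1 the gap was a fraction of the spread and not called (0.02 ± 0.05, adjusted p = 0.774), while EMT6 rose by 0.40 ± 0.06 (adjusted p = 5.14e-05), with a difference of 0.36 ± 0.08 (adjusted p = 0.000616). Gstm5 was called lower in EMT6 (-0.36 ± 0.10, adjusted p = 0.00525), from 15.9 to 18.2 FPKM in control to 12.1 to 14.1 in KO, and not in 4T1 (-0.12 ± 0.13, adjusted p = 0.424). Gstt2 was hardly detected: it had 4 to 9 counts per library in 4T1 control and 1 to 3 in KO, too few to be tested, and in EMT6 its small fall (-0.85 ± 0.34, adjusted p = 0.0424, from 0.30 to 0.37 FPKM to 0.12 to 0.22) was lost when any 1 of the 6 EMT6 libraries was left out (-0.65 to -0.999, adjusted p from 0.0522 to 0.163), with DESeq2 (adjusted p = 0.0931) and without the low-count filter (adjusted p = 0.104).

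Transferase copies can share reads, and the sources used here do not give how reads with several matches were counted. With the counts of Gstm1 to Gstm7 summed, the mu family rose by 0.72 in 4T1 (adjusted p = 3.58e-09) and fell by 0.40 in EMT6 (adjusted p = 1.48e-05), and in EMT6 control Gstm1 gave 35308 and Gstm2 13365 of the summed counts, so the family value does not show the direction of any single member. With Gstt1 to Gstt4 summed, the theta family rose by 0.29 in 4T1 (adjusted p = 0.0207) and was called lower in EMT6 (-0.43, adjusted p = 0.000274). Gstt3 held most of these counts, with 577 against 102 for Gstt1 in 4T1 control and 1340 against 829 in EMT6 control. For Gstp1, 1428 counts of the pseudogene Gstp-ps stood beside 7028 in 4T1 control, and adding them gave 0.27 in 4T1 (adjusted p = 3.63e-05).

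Of the membrane transferases, Mgst1 gave the largest difference between the lines among the 38 genes tested, close to that of Xdh (-2.71 ± 0.09). Mgst1, an enzyme of the endoplasmic reticulum that also reduces lipid peroxides, went from 2.0, 1.26 and 1.34 FPKM to 3.26, 3.6 and 4.99 in 4T1. Its EMT6 libraries went from 26.3, 27.6 and 27.8 FPKM to 9.55, 8.55 and 10.6. Neither line showed overlap, and the EMT6 KO libraries stood at 35.0% of control. The changes were 1.28 ± 0.19 (adjusted p = 5.42e-06), -1.52 ± 0.08 (adjusted p = 3.14e-10) and -2.81 ± 0.21 for the difference (adjusted p = 2.61e-10). Mgst2, which can also make leukotriene C4, went from 1.12, 0.85 and 0.67 FPKM to 2.49, 2.11 and 2.73 in 4T1 and from 15.5, 10.7 and 13.1 to 6.47, 7.69 and 7.08 in EMT6. All groups were apart here too, although the EMT6 controls were widely spread, with changes of 1.38 ± 0.17 (adjusted p = 3.39e-07), -0.88 ± 0.12 (adjusted p = 3.77e-05) and -2.28 ± 0.23 for the difference (adjusted p = 1.20e-07). Mgst3 was not called in 4T1 (0.12 ± 0.08, adjusted p = 0.195) and rose in EMT6 (0.50 ± 0.13, adjusted p = 0.00492), from 6.73 to 8.35 FPKM in control to 8.90 to 11.1 in KO. In 4T1 it passed with total-count scaling (0.20, adjusted p = 0.0381) and with chromosome medians removed (0.28, adjusted p = 0.00508). The difference of Mgst3 between the lines had the opposite sign and was not called (0.36 ± 0.16, adjusted p = 0.0521). It passed in 5 alternatives (adjusted p from 0.0162 to 0.0487). Summed over the 8 cytosolic and 3 membrane genes, transferase RNA went from 213, 199 and 209 FPKM to 264, 261 and 280.3 in 4T1, and from 1412, 1391 and 1280 to 926, 920.2 and 920.3 in EMT6. Gsta4 made up 39.4% of that sum in EMT6 control, and Gstm1 36.0% in EMT6 KO.

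Ferritin, the iron store, has light chains from Ftl1 and heavy chains, which oxidise iron, from Fth1. Ftl1 went from 340.1, 329 and 383 FPKM to 498, 490.2 and 551 in 4T1, and from 1839, 2088 and 1872 to 2361, 2186 and 2355 in EMT6. It rose in both lines without overlap, by 0.47 ± 0.05 (adjusted p = 4.78e-08) and 0.25 ± 0.07 (adjusted p = 0.00406), and the second call was lost with chromosome medians removed (0.14, adjusted p = 0.0843). Fth1 moved against its partner in 4T1 and with it in EMT6: it went from 802, 769 and 786 to 667, 662 and 683 FPKM there, and from 504, 507 and 458 to 675, 693 and 635 FPKM in EMT6. Every library of a KO group lay on its own side of the controls, with changes of -0.31 ± 0.04 (adjusted p = 4.98e-07) and 0.45 ± 0.06 (adjusted p = 1.38e-05), and a difference of 0.74 ± 0.07 (adjusted p = 1.13e-08). The ratio of Fth1 to Ftl1 FPKM was 2.25 ± 0.17 (SD, n = 3) in 4T1 control and 1.31 ± 0.06 in KO, and 0.254 ± 0.0175 and 0.291 ± 0.0242 in EMT6. The difference of Ftl1 between the lines (-0.24 ± 0.09, adjusted p = 0.0213) was lost without 4T1 control replicate 1 (-0.21), 4T1 control replicate 2 (-0.21), 4T1 KO replicate 3 (-0.19), EMT6 control replicate 2 (-0.17) or EMT6 KO replicate 2 (-0.20), with adjusted p from 0.0617 to 0.0801. The pseudogene Ftl1-ps1 had 450 counts beside 20997 for Ftl1 in 4T1 control, and summing the copies left both ferritin calls in place in each line.

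Of the enzymes that handle superoxide, peroxide and purines, Xdh had the second largest rise of the 39 in 4T1. Xdh, xanthine dehydrogenase, went from 0.96, 0.91 and 0.99 FPKM to 3.42, 3.28 and 3.84 in 4T1. EMT6 libraries went from 63.7, 59.9 and 67.4 to 34.1, 33.4 and 35.2 FPKM. The replicates lay close together, and the changes were 1.80 ± 0.10 (3.49-fold, adjusted p = 1.82e-13), -0.89 ± 0.06 (adjusted p = 1.43e-09) and -2.71 ± 0.09 for the difference (adjusted p = 2.03e-16). Cat, catalase, went from 36.1, 33.7 and 31.6 to 43.4, 40.9 and 42.8 FPKM in 4T1 and from 82.8, 78.1 and 78.5 to 96.3, 98.8 and 91.4 in EMT6. It rose in both lines without overlap, by 0.25 ± 0.05 (adjusted p = 0.000384) and 0.26 ± 0.05 (adjusted p = 0.000597), with a difference of -0.01 ± 0.08 (adjusted p = 0.955), and the 4T1 call was lost with chromosome medians removed (0.12, adjusted p = 0.0634). Sod1, the cytosolic superoxide dismutase, read 24.3, 22.2 and 25.3 FPKM in 4T1 control and 25.6, 27.0 and 28.2 in KO, and went from 35.5, 33.6 and 32.1 to 22.4, 24.3 and 26.4 in EMT6. The 4T1 groups were next to each other and not called (0.09 ± 0.05, adjusted p = 0.143), except with total-count scaling (0.17, adjusted p = 0.00957) or a 5 FPKM limit (0.15, adjusted p = 0.0151), while EMT6 fell by 0.47 ± 0.07 (adjusted p = 1.46e-05) and the difference was -0.58 ± 0.09 (adjusted p = 4.20e-06). Sod2, the mitochondrial form, was called in neither line and stood at 8.48 to 9.86 FPKM over all 12 libraries.

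Before any knockout, the EMT6 controls held more RNA of most of these genes than the 4T1 controls. In the contrast of the control groups, 32 of 39 genes were called higher in EMT6 (82.1%, against 37.5% of all 14301 tested genes), 4 lower (against 37.2%) and 3 not called, with a median log2 difference of 1.20 and 0.00 over all genes. The 4 lower ones were Txn1, Gstp1, Mgst3 and Fth1. The members took 0.682% to 0.722% of all counts in 4T1 control and 1.41% to 1.503% in EMT6 control, and in KO 0.726% to 0.767% and 1.503% to 1.52%. Gstm1 was 79.0-fold higher in EMT6 control, Xdh 68.0-fold, Gsta4 42.7-fold, Gstm2 40.8-fold, Ephx1 25.6-fold, Mgst1 17.9-fold, Mgst2 14.9-fold and Hmox1 13.5-fold. Gss, Gpx1 and Sod2 were not called, and Gss passed as higher without 4T1 control replicate 3 (0.20, adjusted p = 0.0364). The small difference of Prdx6 (0.15 ± 0.05, adjusted p = 0.0141) was lost without 4T1 control replicate 1 (0.13, adjusted p = 0.0589), 4T1 control replicate 2 (0.12, adjusted p = 0.0674) or EMT6 control replicate 2 (0.11, adjusted p = 0.0551). This contrast uses the same control libraries as both KO comparisons, so the values are only set side by side: the 11 genes that moved up in 4T1 and down in EMT6 were 5.18-fold (G6pdx) to 79.0-fold (Gstm1) higher in EMT6 control, and the 6 that rose in both were 1.11-fold (Gss) to 5.62-fold (Ftl1) higher. A high EMT6 control level was not limited to the 11 genes. Hmox1 (13.5-fold), higher only in EMT6 KO, and Gstt1 (7.16-fold), higher only in 4T1 KO, lay in their range. By level per length, Fth1, Ftl1, Txn1, Prdx1 and Gstp1 led the 39 in 4T1 control, where the libraries of Ftl1 and Txn1 overlapped. In EMT6 control the order was Ftl1, Gsta4, Fth1, Gstm1 and Prdx1, and the libraries of Gsta4 and Fth1, and those of Fth1 and Gstm1, overlapped.

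**Figure D3:**
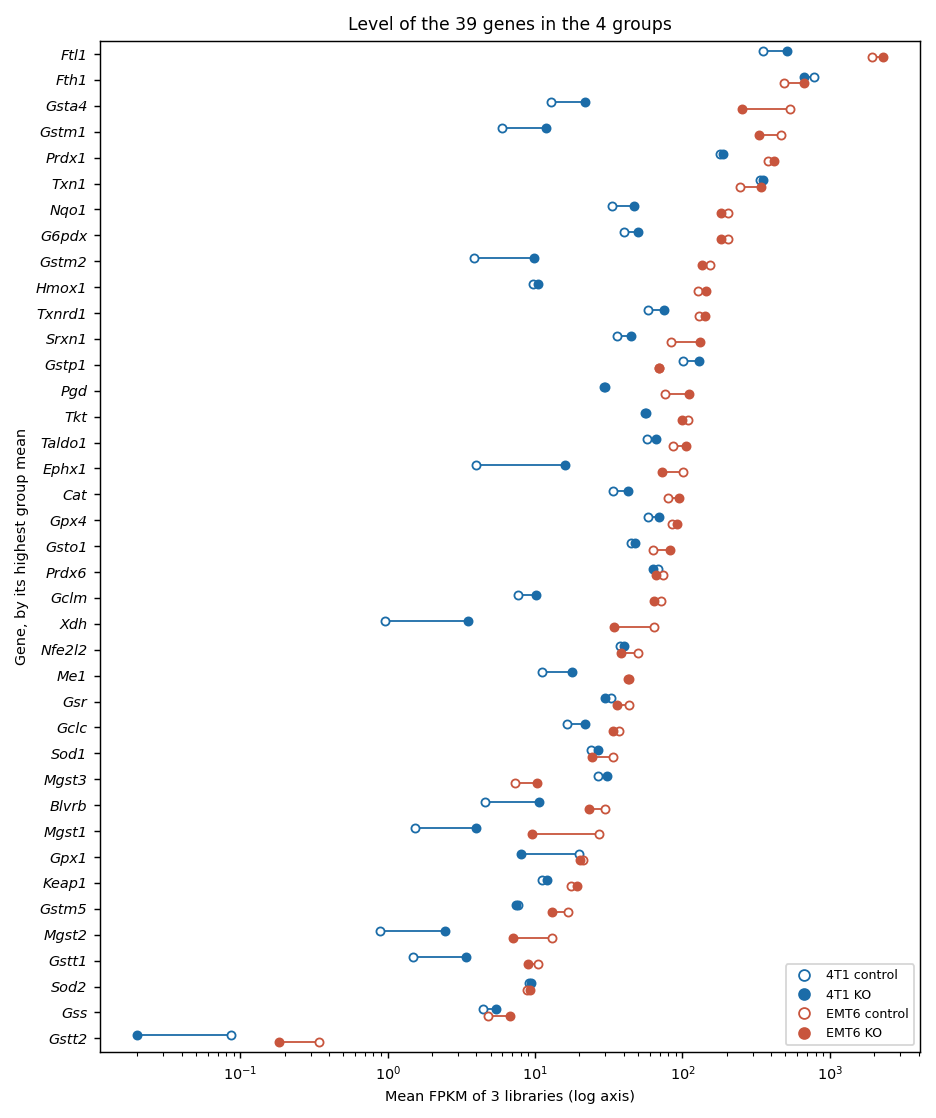
Mean FPKM of 3 libraries on a log axis (horizontal) for each of the 39 genes (vertical, by highest group mean), with control as open and KO as filled points joined by a line, in 4T1 (blue) and EMT6 (red). Gstm1 lies at 5.95 FPKM in 4T1 control and 465 in EMT6 control.

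Other genes of the same pathways were counted from 7 lists, also chosen with earlier results of these data known. They hold 155 entries besides the 39 genes. In 4T1, 115 were tested, with 37 called higher (32.2%) and 31 lower (27.0%) and a median log2 change of 0.01, close to the 28.0% and 29.0% of all genes. In EMT6, 125 were tested, with 35 higher (28.0%) and 54 lower (43.2%) and a median of -0.12, where all genes gave 27.9% and 28.2%. The share of each list is given to be read against these values. Of other NRF2 targets and detoxification enzymes, 9 of 18 tested rose (50%) and 2 fell (11.1%) in 4T1, and 3 of 24 rose (12.5%) and 16 fell (66.7%) in EMT6. Slc7a11, the cystine carrier that feeds glutathione synthesis, went from 0.44 ± 0.04 to 1.30 ± 0.13 FPKM (SD, n = 3) in 4T1 (1.495 ± 0.12, adjusted p = 3.34e-10) and from 62.6 ± 5.2 to 17.7 ± 2.1 FPKM in EMT6 (-1.82 ± 0.09, adjusted p = 2.35e-09). Aldh3a1, an aldehyde dehydrogenase (1.51 ± 0.12), and Ptgr1, a prostaglandin reductase (0.99 ± 0.09), rose in 4T1, and the efflux pump Abcc4 (-2.45 ± 0.15) and the glucuronosyltransferase Ugt1a6b (-1.59 ± 0.30) fell in EMT6. The levels of Abcc4 (2.22 to 0.41 FPKM) and Ugt1a6b (1.11 to 0.37 FPKM) in EMT6 were low. Of other glutathione transferases, 3 of 8 rose (37.5%) and 2 fell (25%) in 4T1, and 2 of 12 rose (16.7%) and 8 fell (66.7%) in EMT6. Ptges, a prostaglandin E synthase of the same superfamily as Mgst1, fell in 4T1 (-2.05 ± 0.11), Gsto2 rose there (0.87 ± 0.21), and Gstk1 (-2.10 ± 0.28) and Gsta2 (-1.73 ± 0.17) fell in EMT6. Ltc4s, which makes leukotriene C4, rose in 4T1 (1.47 ± 0.40) and fell in EMT6 (-1.82 ± 0.42). Its means were low in both lines, from 0.42 to 1.23 FPKM in 4T1 and from 1.15 to 0.32 FPKM in EMT6.

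Genes of glutathione turnover and transport gave 7 higher (46.7%) and 5 lower (33.3%) of 15 in 4T1, and 3 higher (18.8%) and 7 lower (43.8%) of 16 in EMT6. Chac1, which breaks glutathione down, went from 9.09 ± 1.00 to 56.9 ± 10.5 FPKM in 4T1 (2.57 ± 0.16, adjusted p = 8.57e-06) and from 87.1 ± 2.2 to 46.2 ± 11.4 FPKM in EMT6 (-0.91 ± 0.19, adjusted p = 0.00900). Ggct, a cyclotransferase that acts on gamma-glutamyl amino acids, fell in 4T1 (-1.40 ± 0.10), where the amino acid carrier Slc1a4 rose (0.90 ± 0.09), and Cth, which makes cysteine, fell in EMT6 (-2.94 ± 0.50) with controls at 6.93 ± 3.61 FPKM, as did Oplah (-0.84 ± 0.11). The remaining thioredoxin, glutaredoxin and peroxidase genes gave 3 higher (13.6%) and 8 lower (36.4%) of 22 in 4T1 and 10 higher (47.6%) and 5 lower (23.8%) of 21 in EMT6. Sod3, the extracellular dismutase, rose in 4T1 (1.34 ± 0.19) and fell in EMT6 (-0.83 ± 0.08), Sesn3 rose (0.93 ± 0.05) and Msra fell (-0.98 ± 0.18) in 4T1, and Txnip, which binds and inhibits thioredoxin (1.20 ± 0.06), and Gpx8 (0.88 ± 0.07) rose in EMT6. In 4T1 the levels of Sod3 (0.65 to 1.73 FPKM) and Msra (1.32 to 0.71 FPKM) were low. Other NADPH genes were 5 higher (29.4%) and 7 lower (41.2%) of 17 in 4T1 and 3 higher (16.7%) and 7 lower (38.9%) of 18 in EMT6. Rpia, the pentose isomerase, fell in both (-0.79 ± 0.08 and -0.92 ± 0.08), Aldh1l2 rose (1.58 ± 0.21) and Me2 fell (-0.66 ± 0.06) in 4T1, and Mthfd2l rose (0.57 ± 0.09) and Idh2 fell (-0.30 ± 0.06) in EMT6. The level of Aldh1l2 in 4T1 was low (0.31 to 1.01 FPKM). Iron and haem genes were 5 higher (33.3%) and 5 lower (33.3%) of 15 in 4T1 and 6 higher (40%) and 5 lower (33.3%) of 15 in EMT6. Tfrc, the transferrin receptor, fell in 4T1 (-0.83 ± 0.05) from 49.1 ± 1.2 to 29.1 ± 1.3 FPKM, the haem carrier Slc48a1 rose there (0.97 ± 0.05), Steap3 fell in 4T1 (-0.99 ± 0.09) and rose in EMT6 (0.41 ± 0.09), and Aco1 rose (0.48 ± 0.07) and Ncoa4 fell (-0.41 ± 0.10) in EMT6. Regulators and partners of NRF2 were 5 higher (25%) and 2 lower (10%) of 20 in 4T1 and 8 higher (42.1%) and 6 lower (31.6%) of 19 in EMT6. Sesn2, a stress-induced sestrin, rose in 4T1 (1.28 ± 0.12) and fell in EMT6 (-0.84 ± 0.16), Nfe2l3 rose (0.44 ± 0.12) and Crebbp fell (-0.32 ± 0.08) in 4T1, and Trim21 (1.22 ± 0.14) and Sesn1 (0.93 ± 0.10) rose in EMT6.

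**Figure D4:**
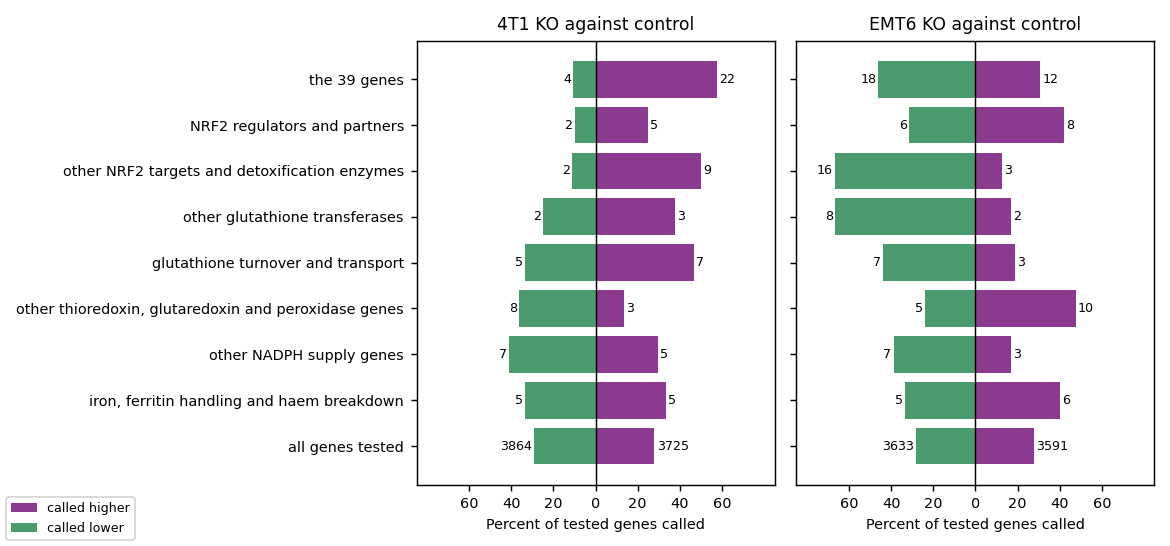
Percent of tested genes called higher (right of 0) and lower (left of 0) in KO at an adjusted p under 0.05 (horizontal axis), for the 39 genes, 7 further lists and all genes tested (vertical axis), in 4T1 and EMT6; numbers are genes. Other NRF2 targets show 9 higher and 2 lower in 4T1 and 3 higher and 16 lower in EMT6, while all genes are 3725 higher and 3864 lower, and 3591 higher and 3633 lower.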

How the data were processed

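The authors deposited 1 table per line with raw read counts per gene and FPKM for its 6 libraries, per the file headers. The submitters' processing notes name HISAT2 2.2.1, HTSeq 0.6.1, cutadapt 1.9.1 and DESeq2, with the genome GRCm38. What each tool was used for, whether counting used strand, and how reads with several matches were treated is not stated in those sources, so genes with near-identical copies, pseudogenes or overlapping neighbours are uncertain. The deposited FPKM matched counts scaled by exonic length and library total within 0.005 for all 680292 values, and were used for levels. Since FPKM are scaled to the library total and the tests by TMM, FPKM ratios in 4T1 run slightly above the fitted changes: with total counts alone the median change of all 4T1 genes is 0.08. The tables' coordinates are not those of GRCm38 annotations, and no coordinate of theirs is printed. Promoter coordinates are RefSeq's on GRCm38.p6.

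Tests used edgeR 4.0.16 in R 4.3.3, with filterByExpr, TMM and the robust quasi-likelihood test, 2-sided, within each line and, for the interaction and the contrast of controls, over all 12 libraries. Biological coefficients of variation were 4.82% (4T1), 6.73% (EMT6) and 5.79% (joint fit of the interaction). The script was tested on simulated data. Limits set by counts, such as 3 counts at 0.152 to 0.219 CPM, cover counting error only, because repeat reads of a molecule cannot be recognised in these tables. Samples were grouped by their titles. Alternatives were DESeq2 1.42.0, limma-voom (limma 3.58.1), DESeq2 size factors, total counts, no low-count filter, a limit of 5 FPKM, removal of each chromosome's median change, a replicate block, each library left out, and summed copies. The version of that sum with pseudogenes was chosen after seeing the data. All 39 genes may be named. They are given per library where called in both lines, called with an absolute log2 change of at least 0.5 in a line, or called in the interaction, at a mean of at least 1 FPKM in a group. Per further list and line, at most 3 called genes are named, by size of change, leaving out those whose control and KO means were both under 1 FPKM in that line. Symbols Wdr23 and Trim16l were not matched, and Nnt has 2 entries and was not used. The 39 genes, the lists and the tests were chosen with earlier results of these data known.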

Additional observations from a re-analysis of the deposited data

Results flagged for a closer look

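The knockout change of 26 genes differed between EMT6 and 4T1 by the test of the interaction of line and knockout, in edgeR's quasi-likelihood fit of all 12 libraries. Values are the log2 change in EMT6 minus that in 4T1. The lower changes in EMT6 were -2.81 for Mgst1, -2.71 for Xdh, -2.41 for Ephx1, -2.28 for Mgst2, -1.78 for Gsta4, -1.53 for Blvrb, -1.48 for Gstm2, -1.42 for Gstm1 and -1.35 for Gstt1. Smaller ones were -0.66 for Me1, -0.61 for Nqo1, -0.58 for Sod1, -0.51 for Gclm, -0.49 for Gclc, -0.41 for Nfe2l2, -0.41 for G6pdx, -0.29 for Gstp1, -0.24 for Ftl1 and -0.17 for Txnrd1. The higher changes in EMT6 were 1.29 for Gpx1, 0.74 for Fth1, 0.60 for Pgd, 0.44 for Txn1, 0.39 for Srxn1, 0.36 for Gsto1 and 0.25 for Gss. Over all genes tested in both lines, 59.9% were called in the same test, 3629 with a lower change in EMT6 and 3568 with a higher one.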

How the results depend on the processing

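Across the alternatives, 13 of 38 genes changed their call in at least 1 setting in 4T1, 16 of 39 in EMT6, 9 of 38 in the interaction and 3 of 39 between controls. Without the low-count filter, 11 genes were called lower in EMT6 (18 as reported) and 7 had opposite calls (11 as reported), with 23721 and 21560 genes tested. With chromosome medians removed, signs turned for Nfe2l2 (-0.12) and G6pdx (-0.0667) in 4T1, Nqo1 (0.0129) and Tkt (0.14) in EMT6, and the interaction of Prdx6 (-0.25, adjusted p = 0.00357). With copies summed, Gstm5 in 4T1 took the value of the family sum, 0.72, also with pseudogenes added (0.72). Leaving out 1 library gave 20 to 22 genes higher and 4 lower in 4T1, 10 to 15 higher and 12 to 18 lower in EMT6, 24 to 26 called in the interaction, 31 to 33 higher and 4 lower between controls, and 8 to 12 with opposite calls. Without EMT6 control replicate 2, more genes were called higher than lower in EMT6. Same-numbered control and KO libraries did not deviate together (correlations -0.02, -0.01 and 0.01 in 4T1 and -0.13, -0.01 and -0.11 in EMT6). In EMT6, control 1 with KO 3 gave 0.13 and control 3 with KO 1 gave 0.11. So few pairs cannot show whether the numbers mark a pairing, and the labels do not say. With the replicate block as a term, the calls over all genes went from 7224 to 6830 in EMT6, and 11 of the 39 genes were called higher and 15 lower there, with 22 higher and 4 lower in 4T1, 26 in the interaction and 10 with opposite calls. Under the block the EMT6 calls of G6pdx (adjusted p = 0.0531), Gstt2 (0.0549), Txnrd1 (0.0773) and Tkt (0.0950) were lost. Depth limits Gstt2 in 4T1, with 1 to 9 counts per library.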
